A study of Mus musculus with 6 samples.

Results

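Macrophages of the heart were followed through 10 genes by which they are commonly recognised, Cd163, Mrc1, Lyve1, Folr2, Timd4, Cd68, Csf1r, Emr1, Lyz1 and Lyz2. The genes were chosen by name, as the non-control probes whose gene name in the array files is one of these 10, a rule that uses no measured value, though the list itself was drawn up with earlier results of these data known. They were 10 of 28909 gene names on the array and were read by 13 of its 55681 probes. Of these genes, 9 had a probe that could be tested and Cd68 had none. Tail-suspension, in which a mouse hangs by the tail so that its hindlimbs bear no weight, serves as a model of microgravity. Heart samples of male C57BL/6 mice after 28 days of tail-suspension were compared with those of sham mice, which were not suspended. Each group had 3 arrays. Neither group carried a transgene or received a drug according to the labels. By the labels the mice were 10 weeks old when suspension began, yet their age is entered as 11 weeks, and the study's methods give 2 months.

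Resident macrophages of the heart lie between the cardiomyocytes, in part derive from embryonic precursors, and take up dead cells and debris. They depend on the receptor CSF1R and are commonly marked by LYVE1, FOLR2, TIMD4, the mannose receptor MRC1 and the haemoglobin scavenger receptor CD163, whereas macrophages that derive recently from blood monocytes tend to carry less of these proteins. The lysozymes, CD68 and EMR1 (F4/80, now named Adgre1) mark macrophages more broadly, and lysozyme is also abundant in monocytes and neutrophils.

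Total RNA of each sample was labelled in 1 colour and hybridised to an Agilent array, and the scanner software gave each spot a background-corrected brightness, its processed intensity. Levels are the log2 processed intensity minus the 75th percentile of the array, so that a level of 0 is the 75th percentile. The 6 arrays shared 1 slide and 1 scan. The 75th percentile lay between 302 and 376 and the share of probes well above background between 50.9% and 53.4%. The 9 cardiomyocyte markers checked had a mean log2 level of 8.78 to 8.90 on the sham arrays and 8.71 to 8.75 on the tail-suspension arrays, far above the 75th percentile in this cardiac tissue. The groups were compared with limma, with p-values adjusted over all 28032 probes tested. The labels do not say whether each replicate was a separate mouse, so p-values measure only the spread between these samples. The smallest two-sided p that an exact permutation test of 3 against 3 arrays allows is 0.1. In bulk tissue, fewer cells of a type and less RNA per cell cannot be told apart.

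Each member was read by 1 spot per probe, a probe being 60 bases long. Probes of Folr2, Csf1r, Emr1 and Cd68 are not shown. Those behind the main values of Cd163, Lyve1, Mrc1, Timd4, Lyz1 and Lyz2 are shown so that the transcript read can be traced. The first 30 bases of each are given 5′ to 3′ in lower case, with no stretch singled out, as the array design files hold them.
Cd163: tgttttacaatggtacatggggcagtattg
Lyve1: cactttgtgtgcctttaacaaatacattat
Mrc1: ctttttcagcagtcctgattcatgtcagtt
Timd4: acttcttttcacattcaagtttctttaaag
Lyz1: ccaataaccacaggagcaaatctaatctca
Lyz2: aacgttgtgagtttgccagaactctgaaaa
On the mouse build mm9, the whole probe of Cd163 lay at chr6:124270436-124270495 on the plus strand, that of Lyve1 at chr7:117994171-117994230 on the minus strand and that of Mrc1 at chr2:14253273-14253332 on the plus strand. The probe of Timd4 lay at chr11:46657173-46657232 on the plus strand. The probes of Lyz1, at chr10:116724862-116724921, and Lyz2, at chr10:116719175-116719234, both lay on the minus strand with 5627 bases between them. The design gives no exon or UTR for a probe, so the part of the gene that each reads is not stated here.

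Of the 9 members tested, 1 passed an adjusted p of 0.05, Cd163, which was higher in tail-suspended hearts and entered the test only through that group, since its probe was well above background on 0 of 3 sham arrays. Over all 17140 genes tested, 21.2% passed, 10.6% higher and 10.5% lower, so that the share among the members, 11.1%, was not above that among all genes. The groups of arrays did not overlap for 2 of the 9 members, Cd163 and Timd4, whereas they did not overlap for 46.4% of all genes tested. The log2 difference was above 0 for 7 of the 9 members, with a median of 0.52 beside -0.01 over all genes tested. The median size of the difference, whatever its direction, was 0.56 on the log2 scale for the members and 0.23 for all genes. The median SD within a group over all genes tested was 0.12 on the sham and 0.14 on the tail-suspension arrays, and 9 of the 10 members, all but Cd163, had the larger SD on the tail-suspension arrays, as 55.3% of all genes tested did.

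**Figure D1:**
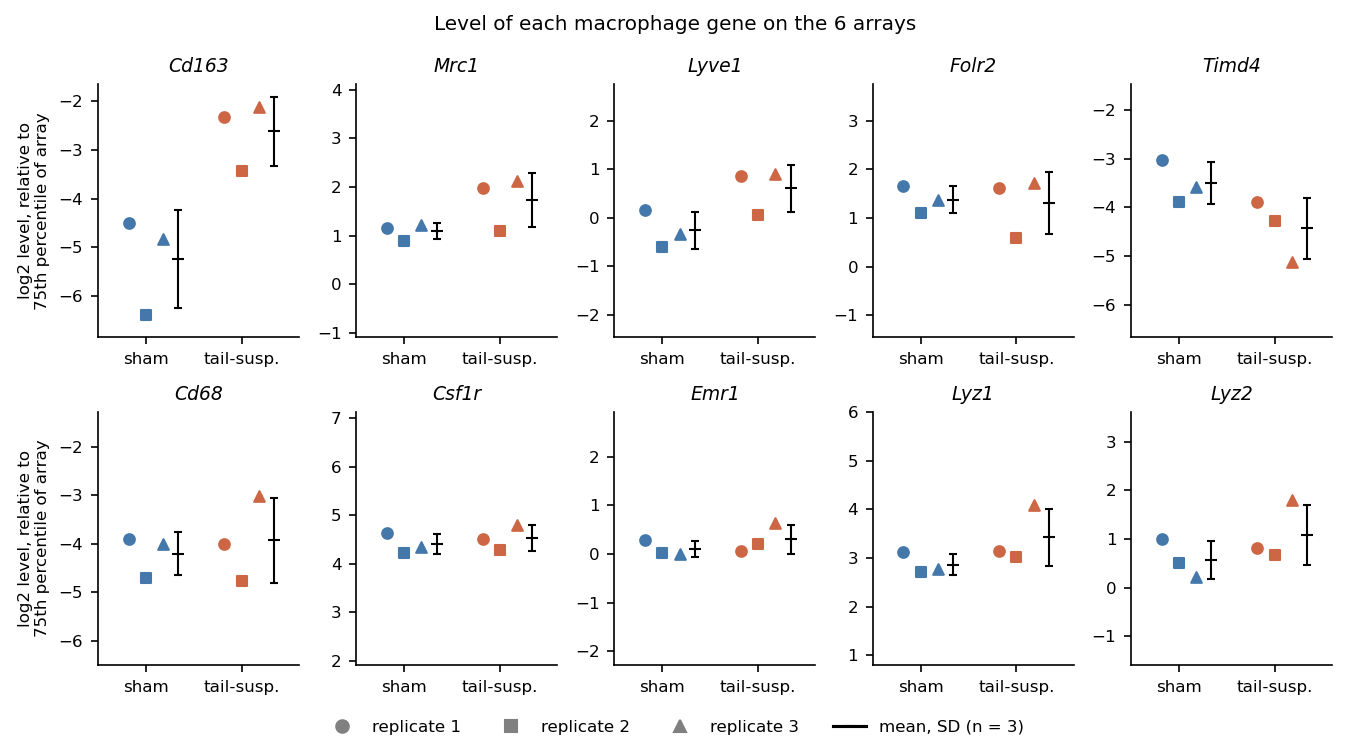
Log2 level of each of the 10 genes on the 6 arrays, relative to the 75th percentile of the array. Points are arrays, symbols replicates, and bars the mean and SD of 3 arrays. Every panel spans the same height on the log2 scale, and the groups lie apart for Cd163 (higher) and Timd4 (lower) alone.

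Cd163, the receptor through which macrophages take up complexes of haemoglobin and haptoglobin, was higher in tail-suspended hearts. Its probe had a processed intensity of 14.2, 3.79 and 10.6 in sham and of 68.1, 35.1 and 87.35 in tail-suspended hearts. All tail-suspension arrays lay above all sham arrays, and tail-suspension replicate 2 was the dimmest of its group. The probe was well above background on 3 of 3 tail-suspension arrays and on 0 of 3 sham arrays, so it entered the test only through the group in which it was high, and its sham level has only a bound. Set against the lowest signal well above background, Cd163 was at least 3.39-fold higher after tail-suspension. The bound divides the mean of the tail-suspension arrays by the mean, over the sham arrays, of the lowest signal well above background or the probe's own where that was higher, both taken as means of log2 levels. It leaves out the spread between arrays and was itself not tested. The measured signals differed by 2.63 on the log2 scale (adjusted p = 0.024), with an SE of 0.56 and a 95% interval of 1.30 to 3.96. Cd163 no longer passed without tail-suspension replicate 1 (adjusted p = 0.0676) or replicate 3 (adjusted p = 0.0764), and with normexp background correction the difference was 0.51 (adjusted p = 0.0761). Nor did it pass with no filter on dim probes (adjusted p = 0.0734), with the methods' t-test after adjustment (adjusted p = 0.0928) or with the slide row as a block (adjusted p = 0.142), and a filter on all 6 arrays left the probe out.

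Mrc1, the mannose receptor, and Lyve1, a receptor for hyaluronan, had positive differences that did not pass. The processed intensity of Mrc1 was 722.4, 594.5 and 699.4 in sham and 1346, 805.1 and 1635 in tail-suspended hearts. Relative to the 75th percentile of its array, the lowest tail-suspension value, that of replicate 2, fell inside the sham range. The log2 difference of Mrc1 was 0.64 with an SE of 0.27 and a 95% interval of -0.004 to 1.29 (adjusted p = 0.133). Without tail-suspension replicate 2 it was 0.96 and passed (adjusted p = 0.00982).

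For Lyve1 the processed intensity was 359.7, 210.2 and 240.2 in sham and 620.6, 391.1 and 696.4 in tail-suspended hearts. Tail-suspension replicates 1 and 3 lay above all sham arrays, and replicate 2 lay below sham replicate 1 on the log2 level. The log2 difference was 0.86 with an SE of 0.28 and an unadjusted 95% interval of 0.18 to 1.54 (adjusted p = 0.0746). It passed without tail-suspension replicate 2 (1.14, adjusted p = 0.0246), with normexp background correction (0.74, adjusted p = 0.0379) and with array weights (1.05, adjusted p = 0.0262). Lyve1 is also a marker of lymphatic endothelium. Of 4 lymphatic endothelial markers tested, 1 rose, Mmrn1, which encodes multimerin 1, by 0.59 (adjusted p = 0.0305), with a median log2 difference of -0.07. Prox1, a transcription factor of lymphatic endothelium, differed by -0.48 (adjusted p = 0.145). Whether Prox1 reads lymphatic cells alone in heart tissue was not tested. The mean level of the list was -0.86 to -0.67 on the sham and -0.81 to -0.71 on the tail-suspension arrays. The part of lymphatic cells in the value of Lyve1 was not tested.

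Folr2, a folate receptor of resident macrophages, differed by -0.07 on the log2 scale with an SE of 0.32 and a 95% interval of -0.83 to 0.68 (adjusted p = 0.887). Its processed intensity was 1013, 686.6 and 784.6 in sham and 1052, 562.8 and 1231 in tail-suspended hearts. Tail-suspension replicate 2 was the lowest of all 6 arrays and replicate 3 the highest, so the groups overlapped throughout. Without replicate 2 the difference turned to 0.29 (adjusted p = 0.262), and neither value passed.

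Timd4, a receptor for phosphatidylserine on dying cells, had a negative difference that did not pass. Its processed intensity was 39.7, 21.6 and 25.2 in sham and 22.9, 19.5 and 10.8 in tail-suspended hearts. On the log2 level all tail-suspension arrays lay below all sham arrays but barely so, tail-suspension replicate 1 being at -3.90 and sham replicate 2 at -3.89. The probe was dim, well above background on 3 of 3 sham arrays but on 1 of 3 tail-suspension arrays. The log2 difference was -0.93 with an SE of 0.35 and an unadjusted 95% interval of -1.77 to -0.09 (adjusted p = 0.103). It passed with normexp background correction alone among the alternatives (-0.45, adjusted p = 0.0338).

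**Figure D2:**
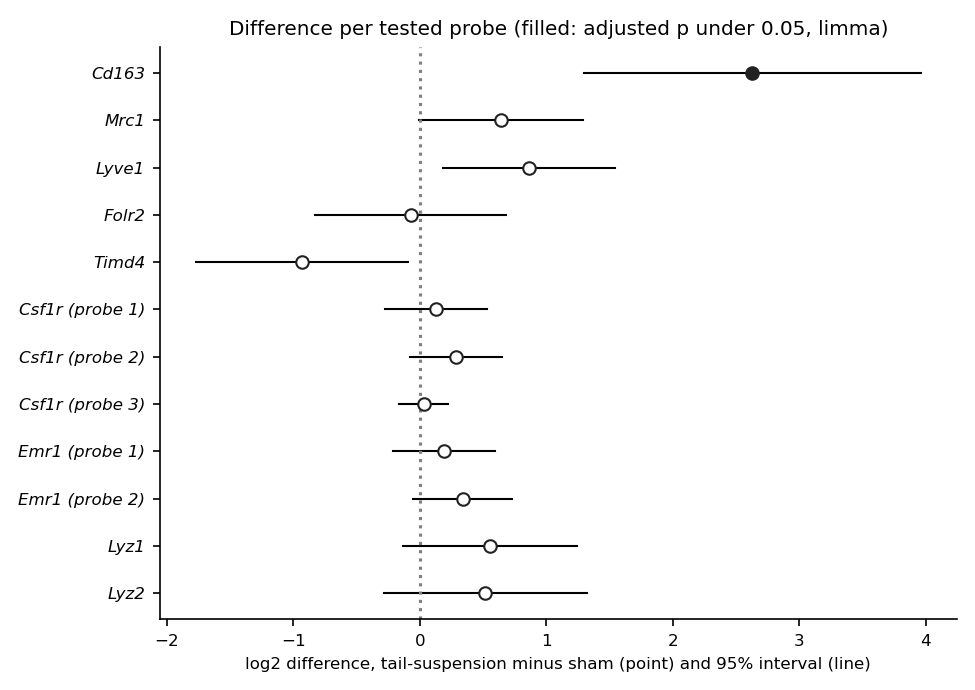
Log2 difference of each tested probe of the 9 genes, tail-suspension minus sham, with its 95% interval from limma, unadjusted for the number of probes. The 1 filled point, Cd163, passed the adjusted threshold. Its position at 2.63 rests on sham signals not well above background. Its fold set against the lowest signal well above background was at least 3.39, a bound that leaves out the spread between arrays. The intervals of Csf1r, Emr1, Folr2, Lyz1, Lyz2 and Mrc1 include 0.

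Csf1r, the receptor for the growth factors CSF1 and IL-34 that macrophages need to survive, was bright on every array. The brightest of its 3 probes read 7984, 5992 and 6113 in sham and 7733, 7279 and 10500 in tail-suspended hearts, and tail-suspension replicate 3 was the highest array. The groups overlapped, and the log2 difference was 0.13 with an SE of 0.17 and a 95% interval of -0.28 to 0.53 (adjusted p = 0.612). The other probes of Csf1r differed by 0.29 (adjusted p = 0.212) and 0.03 (adjusted p = 0.8), so none of the 3 passed. The highest upper end among the 95% intervals of the 3 probes was 0.65.

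Emr1, an adhesion receptor used as the general marker of mouse macrophages, read 395.1, 326.1 and 301.6 in sham and 354.9, 433.1 and 581.6 in tail-suspended hearts by its brighter probe. The groups overlapped and tail-suspension replicate 1 was the lowest of its group. The log2 difference was 0.19 with an SE of 0.17 (adjusted p = 0.448), and the other probe differed by 0.34 (adjusted p = 0.18). Cd68, a protein of macrophage lysosomes and endosomes, was too dim to test. Its probe was well above background on 2 of 3 arrays of each group and read 21.5, 12.3 and 18.8 in sham and 21.2, 13.9 and 46.19 in tail-suspended hearts, which overlapped.

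The lysozyme genes Lyz1 and Lyz2 lie next to each other on the chromosome, and their proteins cut the cell walls of bacteria. The processed intensity of Lyz1 was 2793, 2092 and 2058 in sham and 3019, 3074 and 6395 in tail-suspended hearts. That of Lyz2 was 645.1, 451.9 and 351.5 in sham and 595.8, 597.4 and 1306 in tail-suspended hearts. For both genes tail-suspension replicate 3 stood above the other 5 arrays, and replicates 1 and 2 lay within or close to the sham range. The log2 differences were 0.56 for Lyz1 (SE 0.29, adjusted p = 0.204) and 0.52 for Lyz2 (SE 0.34, adjusted p = 0.303). Without tail-suspension replicate 3 they were 0.22 (adjusted p = 0.379) and 0.16 (adjusted p = 0.682). The genes are close paralogs, so signal from one gene on the probe of the other is possible. The probes shared no run longer than 6 bases with each other, which does not show how well each matches the other gene's transcript. That match was not tested. Lysozyme also marks neutrophils. Of 9 neutrophil markers tested, 6 rose, among them S100a8 by 4.80 (adjusted p = 0.00705) and S100a9 by 4.62 (adjusted p = 0.00661), the subunits of calprotectin. Another 3 of the 6, Retnlg, Ltf and Mpo, were well above background on 0 of 3 sham arrays and entered the test only through the tail-suspension group, and Camp, Csf3r and Elane did not pass. The mean level of this list was -2.08 to -1.84 in sham and 0.25 to 2.02 in tail-suspended hearts. Within the tail-suspension group the array with the highest lysozyme, replicate 3, was the highest for 1 of the 9 neutrophil markers, while replicate 1 was the highest for 6. The part of neutrophils in the lysozyme values was not tested.

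Within each group the members followed a common order of arrays. Among the tail-suspension arrays, replicate 2 was the lowest for 8 of the 10 members and replicate 3 the highest for 9. Over the 17120 genes tested that had a value on every array, replicate 2 was the lowest for 39.7% and replicate 3 the highest for 28.6%. The exceptions at the low end were Timd4, lowest on replicate 3, and Emr1, lowest on replicate 1. Among the sham arrays, replicate 1 was the highest for 9 members and replicate 2 the lowest for 8, beside 36.5% and 30.5% of all genes. The same order held in the wider list of 20 pan-macrophage genes, in which tail-suspension replicate 2 was the lowest for 15 and replicate 3 the highest for 15. It was not confined to macrophage genes. All 7 fibroblast markers tested were lowest on tail-suspension replicate 2, and all but Tcf21 were highest on replicate 3. In the 8 class II and costimulatory genes tested, which present antigen, the order of the tail-suspension arrays was another, with replicate 2 the highest for 7 and replicate 3 the lowest for 6. On the sham arrays the same 8 genes followed the members, with replicate 1 the highest for 7 and replicate 2 the lowest for 7. Of the 9 neutrophil markers, 6 were lowest on tail-suspension replicate 2 and 6 highest on replicate 1. These counts describe arrays that share every gene, and genes are not independent of each other.

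**Figure D3:**
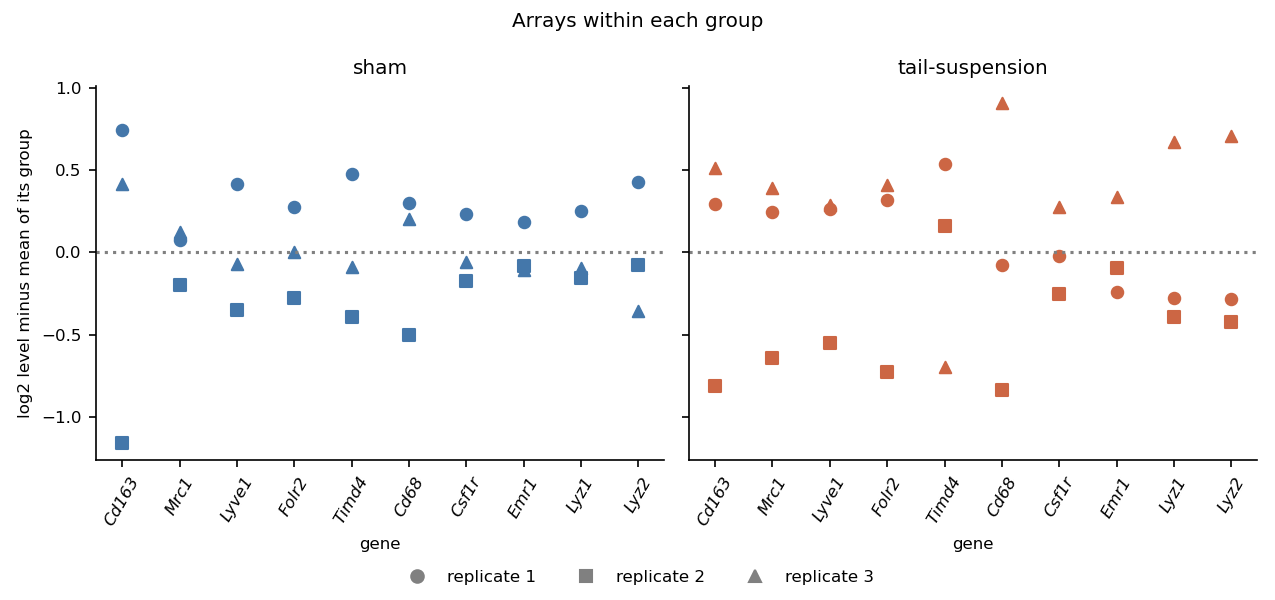
Log2 level of each of the 10 genes on each array minus the mean of its group, with the sham arrays on the left and the tail-suspension arrays on the right. Symbols are replicates, and tail-suspension replicate 2 (squares) is the lowest array of its group for 8 of the 10 genes and replicate 3 (triangles) the highest for 9.

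One row of the slide held all sham arrays together with replicate 1 of tail-suspension, and the other row held replicates 2 and 3 of tail-suspension and no sham array. With the row as a block, only tail-suspension replicate 1 is compared with sham. On that basis the log2 difference was 2.92 for Cd163, 1.12 for Lyve1 (adjusted p = 0.203), 0.89 for Mrc1 (adjusted p = 0.26), 0.25 for Folr2, 0.28 for Lyz1 and 0.23 for Lyz2, and -0.40 for Timd4 (adjusted p = 0.63), and no member passed. These values rest on 1 tail-suspension array, and that of Cd163 on sham signals not well above background. Row and group cannot be told apart for the other tail-suspension arrays.

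The wider macrophage genes give the setting of the members. The counts of these and the other lists stand beside 10.6% of all genes tested that rose and 10.5% that fell. Of 20 pan-macrophage genes tested, 5 rose and 2 fell, with a median log2 difference of 0.61. Those that rose furthest were Fcgr3, an activating receptor for antibodies, by 1.09 (adjusted p = 0.0245), Cd53, a tetraspanin of leukocytes, by 0.88 (adjusted p = 0.0168, but 0.17 with normexp, adjusted p = 0.354), Mertk, a kinase for the uptake of dying cells, by 0.72 (adjusted p = 0.0213) and Fcer1g, the signalling chain of Fc receptors, by 0.63 (adjusted p = 0.0343). Those that fell were Cx3cr1, the fractalkine receptor, and Aif1, which encodes IBA1. The processed intensity of Cx3cr1 was 559.3, 433.8 and 442.9 in sham and 82.7, 129.7 and 98.4 in tail-suspended hearts, with no overlap. It fell by 2.43 on the log2 scale (SE 0.16, adjusted p = 0.0016), its other probe fell by 2.86 (adjusted p = 0.0015), and it passed in 20 of 20 alternatives with a test. Aif1 fell by 0.94 (SE 0.15, adjusted p = 0.0107) and passed in 19 of 20. Itgam did not pass by its brightest probe (-0.19, adjusted p = 0.547). Of its much dimmer probes, one rose by 0.72 (adjusted p = 0.0245) and the other did not pass (0.15, adjusted p = 0.544). Genes of this list thus passed in both directions, whereas Csf1r and Emr1 did not pass.

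Of 15 genes tested in the list of tissue-resident macrophage genes, 4 rose and 1 fell, with a median of 0.18. Ccl8, a chemokine, read 68.2, 53.3 and 115.3 in sham and 1764, 718.9 and 2630 in tail-suspended hearts and rose by 4.11 (SE 0.52, adjusted p = 0.00588). Vsig4, a complement receptor, rose by 2.35 (adjusted p = 0.0382) and Clec10a, a lectin for galactose, by 1.73 (adjusted p = 0.015). F13a1, the A subunit of coagulation factor XIII, rose by 0.95 (adjusted p = 0.0462), though its other probe differed by 0.74 and did not pass (adjusted p = 0.147). All 4 were, as most members were, lowest among the tail-suspension arrays on replicate 2. So were all 7 fibroblast markers, 6 of 9 neutrophil markers and 39.7% of all genes tested. Ccl24, the chemokine eotaxin-2, fell by 1.22 (adjusted p = 0.0156). Cbr2, a carbonyl reductase, differed by 0.18 (adjusted p = 0.582).

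Of 9 monocyte genes tested, 3 rose and none fell, and all 9 differences were above 0 with a median of 0.66. The 3 that rose were highest on tail-suspension replicate 1 and lowest on replicate 2, as were S100a8 and S100a9 among the neutrophil markers. The part of neutrophils in these values was not tested. Plac8 rose by 1.68 (adjusted p = 0.02) and Ifitm6, an interferon-induced membrane protein, by 2.07 (adjusted p = 0.0439). Chi3l3, a chitinase-like protein, rose by 5.10 (adjusted p = 0.0114) but was well above background on 1 of 3 sham arrays. Ms4a4c did not pass by its brightest probe (0.19, adjusted p = 0.348), though a much dimmer probe rose by 0.76 (adjusted p = 0.017). Ccr2, the chemokine receptor that defines classical monocytes, differed by 0.66 and did not pass (adjusted p = 0.0636). Of 7 monocyte-attracting chemokines tested, Ccl6 (1.68, adjusted p = 0.0136) and Ccl9 (1.47, adjusted p = 0.00768) rose, and Ccl2, which binds CCR2, fell by 0.93 (adjusted p = 0.0152). The median of these chemokines was -0.20.

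The ligands of CSF1R moved in opposite directions while the receptor did not pass. Csf1 read 1926, 1566 and 1857 in sham and 1343, 1122 and 1297 in tail-suspended hearts and fell by 0.72 (SE 0.14, adjusted p = 0.0197). Its other probes differed by -0.37 (adjusted p = 0.164) and -0.31 (adjusted p = 0.108) and did not pass. Il34 read 280.5, 259.8 and 293.7 in sham and 476.6, 477.0 and 495.6 in tail-suspended hearts and rose by 0.59 (SE 0.10, adjusted p = 0.0134). Of the 13 genes tested in this list of the CSF1 axis and macrophage transcription factors, 4 rose and 2 fell, with a median of 0.26. Besides Il34, those that rose were Cebpb (1.29, adjusted p = 0.0185), Csf2rb, the shared chain of receptors for GM-CSF and IL-3 (1.23, adjusted p = 0.00694), and Nr1h3, the lipid-sensing receptor LXR alpha (1.11, adjusted p = 0.00739, its other probe 1.24). Spic, a transcription factor of red pulp macrophages, fell by 0.91 (adjusted p = 0.0113). Its probe was dim, well above background on 3 of 3 sham arrays but on 1 of 3 tail-suspension arrays. It thus entered the test only through the sham group, in which it was higher. The transcription factor PU.1, read as Sfpi1, was not well above background on any array.

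Genes that handle haemoglobin, haem and iron, the cargo of CD163, mostly had positive differences. Of 10 tested, 4 rose and 1 fell, with a median of 0.30. Hp, which encodes the haptoglobin that CD163 takes up with haemoglobin, read 93.6, 60.8 and 44.3 in sham and 2492, 671.2 and 1043 in tail-suspended hearts and rose by 4.04 (SE 0.52, adjusted p = 0.0061). Hmox1, which breaks down haem, rose by 0.90 (adjusted p = 0.0223), though its other probe differed by 0.22 and did not pass (adjusted p = 0.157). Ftl1, the ferritin light chain, rose by 0.54 (adjusted p = 0.026). Hpx, which encodes haemopexin, was well above background on no sham array and at least 1.27-fold higher as a bound. It entered the test only through the tail-suspension group, and its measured signals passed (adjusted p = 0.0091). With normexp no rise was seen (adjusted p = 0.975). Tfrc, the transferrin receptor, fell by 2.36 (adjusted p = 0.0243), and its other probes fell by 1.85 and 2.15. Within the tail-suspension group replicate 2 was the lowest for both Hp and Cd163. Hp was highest on replicate 1, as 6 of 9 neutrophil markers and 33.7% of all genes tested were, and Cd163 on replicate 3. The part of neutrophils in the value of Hp was not tested. None of the 4 red cell markers tested passed, and their median was -1.52. Hba-a1, Hbb-b1 and Alas2 lay below sham without overlap, with adjusted p of 0.0506 to 0.0619, and 3 markers were lower with normexp and 2 with quantile normalization.

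Of 13 lysosome genes tested, 4 rose and none fell, with a median of 0.20. Ctsl, a protease, rose by 0.93 (adjusted p = 0.0123), Hexa, a subunit of hexosaminidase, by 0.69 (adjusted p = 0.0207) and Lipa, the acid lipase, by 0.47 (adjusted p = 0.0316). Gpnmb, a glycoprotein of lipid-laden macrophages, was well above background on 0 of 3 sham arrays and at least 6.87-fold higher as a bound. It entered the test only through the tail-suspension group, and its measured signals passed (adjusted p = 0.0121). Lamp2 did not pass by its brightest probe (0.16, adjusted p = 0.215), though its other probe rose by 0.52 (adjusted p = 0.0196). Of 10 scavenger and efferocytosis genes, 1 rose, the cholesterol exporter Abca1. Of the 8 class II and costimulatory genes, 1 rose, Cd86, by 0.34 (adjusted p = 0.0482), and the median was -0.63. The counts that rose in the scavenger and class II lists were near the share over all genes tested, 10.6%. Cd86 passed in 6 of 20 alternatives, and with normexp or quantile normalization none of the list rose. H2-Ab1, a chain of a class II molecule, differed by -0.84 (adjusted p = 0.108). Of 3 alternative activation genes tested, 1 rose, the IL-4 receptor chain Il4ra, and the median was -0.20. Retnla, which encodes RELM alpha, differed by -2.31 and did not pass (adjusted p = 0.0632), though 1 gene of the list was lower with normexp. Arg1 was not well above background on any array. Of 5 classical activation genes, 2 fell, Nos2 and Cd38, and none rose.

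**Figure D4:**
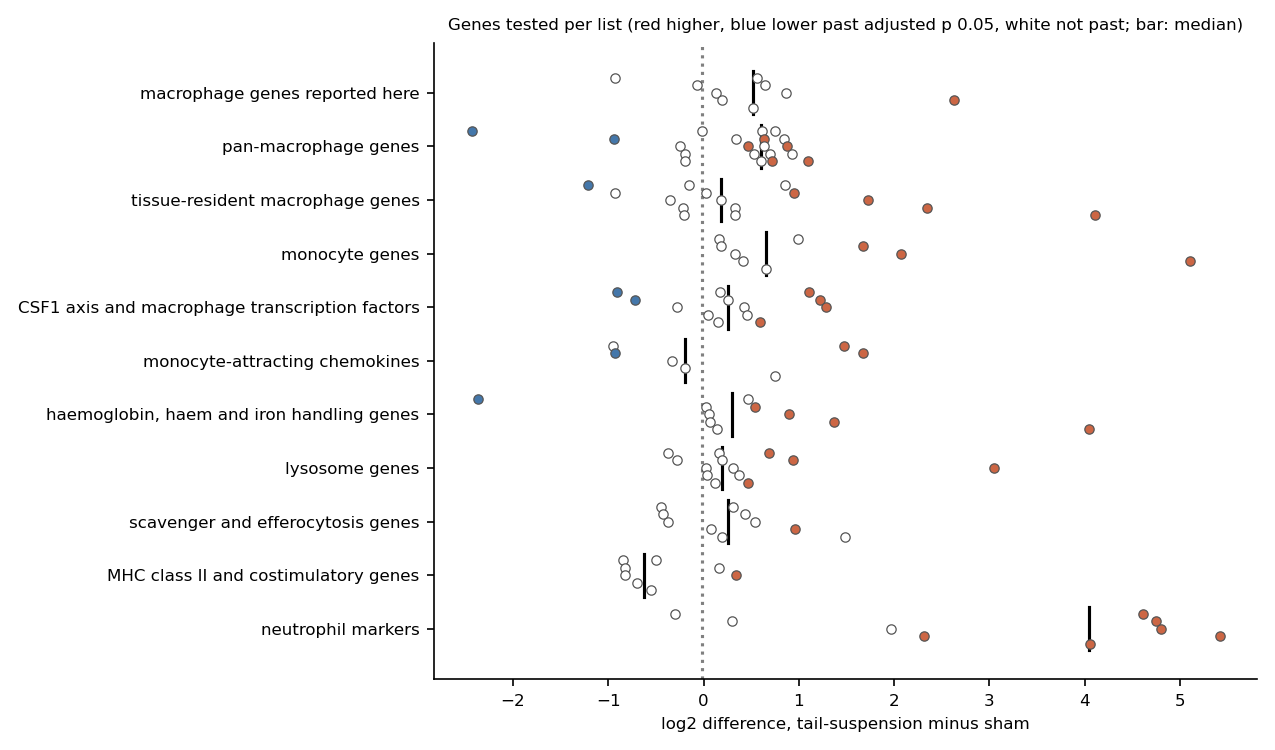
Log2 difference, tail-suspension minus sham, of each gene tested in the macrophage genes reported here and in 10 other lists. Red points rose and blue points fell past an adjusted p of 0.05, white points did not pass, black bars are medians and the dotted line is the median of all genes tested, -0.01.

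Family relatives of the members were read apart from them. Cd163l1, the relative of Cd163, differed by 1.33 and did not pass (adjusted p = 0.113), and it was well above background on 2 of 3 sham arrays. Mrc2, the other mannose receptor family member on the list, differed by -0.46 (adjusted p = 0.0791). Cd44, the main hyaluronan receptor, rose by 0.49 (adjusted p = 0.0228), and its other probe by 1.06 (adjusted p = 0.0499). Emr4, a relative of Emr1, was well above background on 3 of 3 sham and 0 of 3 tail-suspension arrays, and the bound was at least 1.53-fold lower, with a test that did not pass (adjusted p = 0.0584). Flt3, a receptor kinase related to Csf1r, rose by 1.25 (adjusted p = 0.0224), though it was well above background on 1 of 3 sham arrays, differed by 0.075 with normexp (adjusted p = 0.679) and passed in 11 of 19 alternatives with a test. Folr1, the relative of Folr2, and the Timd4 relatives Timd2, Havcr1 and Havcr2 were not well above background on any array.

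Across the settings tried, the members that came closest to the threshold were Cd163, Lyve1, Mrc1 and Timd4. Cd163 had a positive difference in every alternative that gave a value, from 0.51 to 3.08 on the log2 scale, with an adjusted p of 0.0101 to 0.142. Lyve1 ran from 0.69 to 1.14 and Mrc1 from 0.45 to 0.96, whereas Timd4 ran from -1.20 to -0.40. Csf1r, Emr1, Folr2, Lyz1 and Lyz2 passed under none of the alternatives run, and the lowest adjusted p among them was 0.121, that of Lyz1.

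**Figure D5:**
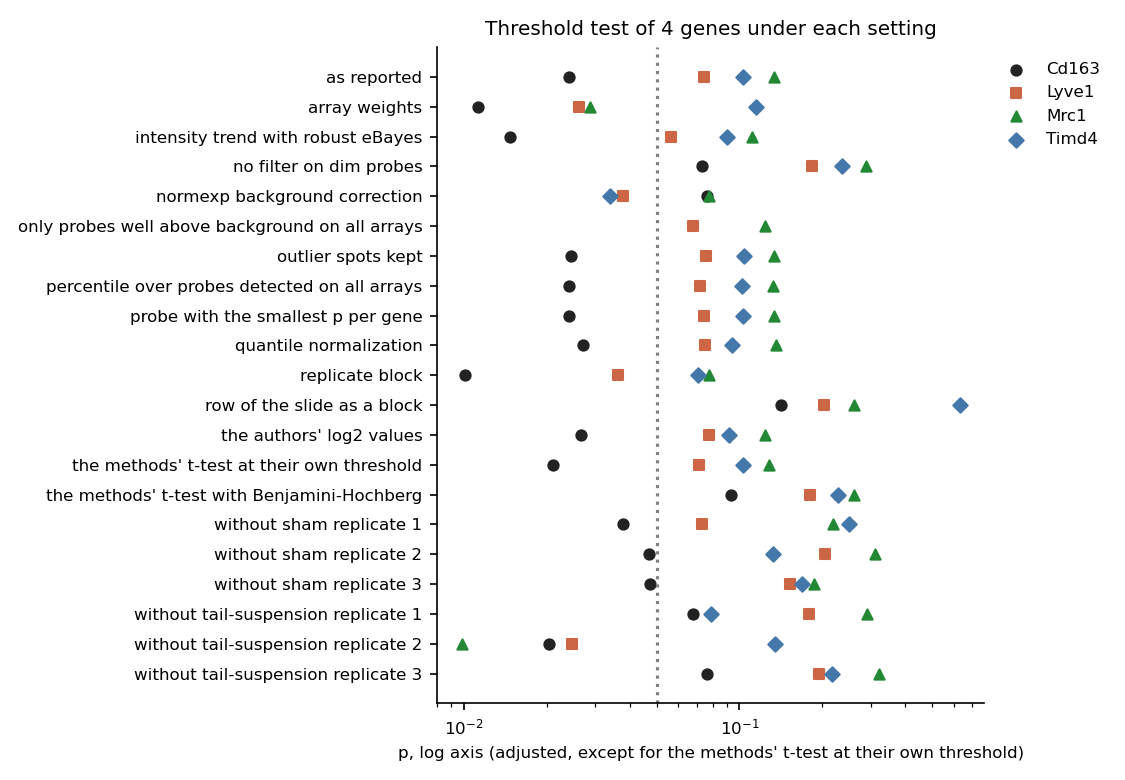
Adjusted p of 4 genes as reported and under each alternative setting, on a log axis, with the threshold of 0.05 dotted. The methods' t-test at its own threshold is shown unadjusted. Cd163 passed in 13 of 19 alternatives with a test, Lyve1 in 4 of 20, Mrc1 in 2 of 20 and Timd4 in 1 of 19.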

How the data were processed

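Gene expression was measured with 1-colour arrays in 3 heart samples of sham and 3 of tail-suspended mice. The authors deposited scanner output in which Agilent Feature Extraction 10.7.1.1 gives each spot a processed intensity, a mean and a background intensity, and other flags for control, outlier and background. They also deposited a table of log2 values for these arrays. Against the scanner's log2 processed intensity its columns had correlations above 0.999, and their medians were nearly the same, 4.33, so it was quantile normalized or close to it. The normalization is not given in the sources used here.

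In R 4.3.3, levels were computed as log2 processed intensity minus the array's own 75th percentile over the non-control spots. Spots flagged as outliers (146 to 212 per array) were then left out, and spots of 1 probe averaged. No spot was saturated. Probes with the flag for a signal well above background on 50% or more of their spots counted as such on that array, and those that did so on all arrays of either group were tested. The 28032 probes tested were fitted with limma 3.58.1 (lmFit and eBayes, no covariate), adjusted by Benjamini-Hochberg, with a threshold of 0.05. The brightest tested probe stood for a gene. Intervals are 95% intervals of the same fit, unadjusted.

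The members and lists were chosen with earlier results of these data known. Named are all members, from each list at most the 4 largest changes past the threshold in each direction, the first 2 genes of a list given beside a result, the ligands Csf1 and Il34, and the nearest relatives. Mpo, Camp, Csf3r, Elane, Alas2, Sfpi1, Timd2, Havcr1, Havcr2, Tcf21, Itgam, Ms4a4c and Lamp2 were named after their values were seen. Gene names and coordinates (mm9) are those of the files. The number of arrays limits the precision.

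Alternatives were normexp (offset 50), quantile normalization, another percentile, the authors' log2 values, no filter, a filter on all 6 arrays, outliers kept, an intensity trend, array weights, the methods' t-test, replicate number or slide row as a block, other rules for the probe of a gene, and each array left out. The fit was tested on simulated data made from 28003 probes for tail-suspension minus sham: 59% of probes shifted by 1 on the log2 scale and 92% of probes shifted by 2 passed.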

Additional observations from a re-analysis of the deposited data

How the results depend on the processing

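As reported, 3023 probes were higher and 2683 lower, and 1 member was higher and 0 lower. With no filter on dim probes, 1041 probes were higher and 790 lower, and with the methods' t-test after adjustment 1532 and 1248. With that test at its own threshold there were 4810 and 4696, and with array weights 4239 and 4092. Blocking on the slide row left 320 higher and 177 lower. Leaving out each array in turn gave 1008 to 2885 probes higher and 749 to 2701 lower.

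The count of members higher was 0 with no filter, with a filter on all 6 arrays, with the adjusted t-test and with the row as a block. It was 3 with array weights and 0 to 3 with each array left out, being 0 without tail-suspension replicate 1 or 3 and 3 without tail-suspension replicate 2. With normexp 1 member was lower, Timd4. With the replicate block 1714 probes were higher and 1403 lower, and 2 members were higher, Cd163 and Lyve1 (adjusted p = 0.0361). Over all tested probes same-numbered arrays did not deviate together (r = -0.02, -0.018 and 0.049). Among the members, however, replicate 2 was the lowest for 8 of 10 in each group. The labels do not say whether the numbers pair the samples.

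Differences of members near 0 changed sign. Folr2 was 0.16 with array weights, 0.25 with the row as a block, and 0.07 without sham replicate 1, and it ran from -0.28 to 0.29 over the arrays left out. Emr1 was -0.049 with the row as a block and Csf1r -0.012 without tail-suspension replicate 3. Hpx, dim in sham, was -0.0070 with normexp. The cause of these changes was not tested.

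Of 58 list genes and members past the threshold as reported, 10 passed with the row as a block, 18 with the adjusted t-test, 23 with no filter and 46 with the replicate block. Between 27 (without sham replicate 2) and 53 (without tail-suspension replicate 2) passed with each array left out, and Hpx alone changed its direction under any alternative.

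Normexp, quantile normalization, the other percentile and the authors' log2 values left the median difference of all probes between -0.062 and 0.0013. A block for the slide could not be fitted, since there was only 1 slide. The probes of Cd163, Timd4 and Cd68 lay close to background, which limits their values.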
